A study of Mus musculus with 7 samples.

Results

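The receptor tyrosine kinase genes Axl, Met, Fgfr1, Fgfr2, Igf1r, Ros1, Ret, Pdgfra and Pdgfrb, together with Hgf, which encodes the ligand of MET, were followed through a mouse model of EGFR-mutant lung cancer. They were chosen by name, and all 10 were found among the 21892 gene symbols of the expression table. The tumors carried an exon 19 deletion of Egfr and had been passaged under the skin of C57BL/6 mice, so host stroma, vessels, immune cells and neighbouring tissue could enter each sample. Bulk RNA was sequenced from 7 groups with 1 library each. Gefitinib, an inhibitor of the EGFR kinase, was given for 3 or 14 days in 2 groups, beside a vehicle group sampled at day 3. In the remaining 4 groups, all sampled at day 21, gefitinib for 14 days was followed by 7 days of DC101, of 4H2, of both antibodies or of vehicle. DC101 is an antibody against mouse VEGFR2, and PD-1, the other target named in the series title, is that of 4H2. Both vehicle groups are called vehicle in their titles, while their treatment entries say that nothing was given at that stage. How many animals stand behind a library is unknown here.

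Receptor tyrosine kinases pass growth signals to the RAS-ERK and PI3K-AKT pathways, the same pathways that mutant EGFR drives. When EGFR is inhibited, another receptor can feed these pathways in its place, which is known as bypass signalling. MET activated by HGF, AXL, FGFR1 and IGF1R are well-studied examples in lung cancer, and ROS1 and RET act as lung cancer drivers after gene fusion. In normal tissue many of these receptors are divided between compartments. FGFR2 and MET are typical of epithelium, PDGFRA and PDGFRB of fibroblasts and pericytes, and AXL of macrophages, dendritic cells and fibroblasts. HGF is usually a product of mesenchymal cells.

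Values are TPM, which divide by transcript length, so that levels can be set side by side between genes. Without replicates there is no spread, and no test, p-value or standard error was computed. Each difference below compares 2 libraries. A gene was called higher or lower when (TPM + 1) differed at least 2-fold, among the 13997 genes with a mean of at least 1 TPM. All 10 genes met that minimum, Ret only narrowly with a mean of 1.5 TPM. On GRCm38.p6 the RefSeq gene spans were Axl on chromosome 7 (25756500-25788924), Met on chromosome 6 (17463349-17573980), Hgf on chromosome 5 (16553495-16619439), Fgfr1 on chromosome 8 (25518759-25575718) and Fgfr2 on chromosome 7 (130162451-130266808). The other 5 were Igf1r on chromosome 7 (67952257-68233668), Ros1 on chromosome 10 (52044863-52195398), Ret on chromosome 6 (118151748-118197744), Pdgfra on chromosome 5 (75151322-75198206) and Pdgfrb on chromosome 18 (61045127-61085067).

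The libraries differed widely in their tissue content, which touches every value below. The 15 epithelial markers summed to 4693 TPM in the vehicle library of day 3, and 1503 and 2393 TPM after 3 and 14 days of gefitinib. At day 21 the same sum was 5769 TPM with DC101, 53.5 TPM with 4H2, 456 TPM with the combination and 8584 TPM with vehicle. None of the 15 was listed at 0 in any library. The lung lineage was visible in the tumors, with the alveolar type 2 gene Sftpc at 2428.8 TPM or more in 5 libraries, but at 28.8 TPM with 4H2 and 144.6 TPM with the combination. The 14 fibroblast markers summed to 3396 TPM in the vehicle library of day 3, and to between 8634 and 27879 TPM elsewhere. Skeletal muscle markers summed to 86007 TPM with 4H2 and 83288 TPM with the combination, against 17772 TPM with DC101 and at most 3781 TPM in the other 4 libraries. In bulk tissue, fewer cells of a type and less RNA per cell cannot be told apart.

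The 10 genes fell into 3 patterns and 1 gene near the detection limit. Axl, Pdgfra, Pdgfrb and Fgfr1 were lowest in the vehicle library of day 3, and stayed at similar levels in the day 21 libraries, whether epithelial RNA was present or not. Ros1 and Fgfr2 were highest in the vehicle library of day 3, and nearly absent with 4H2. Met, Igf1r and Hgf were also highest in the day 3 vehicle library but, with 4H2 and the combination, were at 35.2% to 56.2% of their day 21 vehicle level. Ret did not exceed 3.3 TPM. This grouping was made from the values described below and is not a test.

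**Figure D1:**
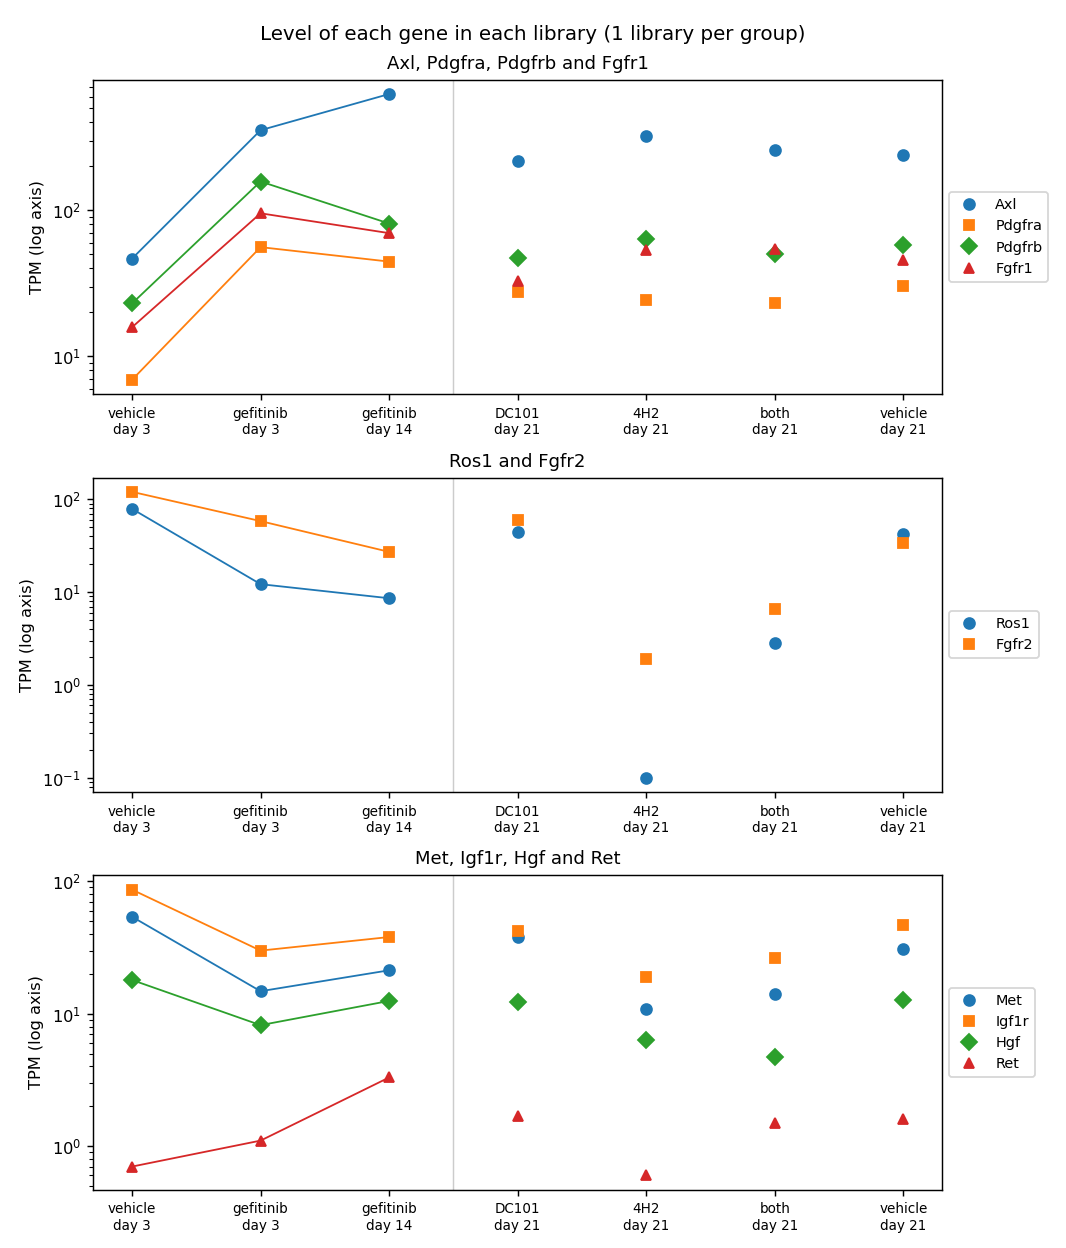
TPM of each of the 10 genes (y axis, log scale) in each of the 7 libraries (x axis), with each point 1 library; lines join the vehicle library of day 3 and the 2 gefitinib libraries. Axl is at 46.6 TPM in the vehicle library of day 3, and 219 TPM or more in all others, whereas Ros1 is at 0.1 TPM with 4H2 and at 79.2 TPM in the day 3 vehicle library.

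Axl encodes a receptor of the TAM family that binds GAS6 and is linked to mesenchymal states and drug tolerance. It was at 46.6 TPM in the vehicle library of day 3, and 353.1 and 624.7 TPM after 3 and 14 days of gefitinib. At day 21 it was at 219 TPM with DC101, 324.1 TPM with 4H2, 259.6 TPM with the combination and 240.6 TPM with vehicle. The day 14 library stood highest, 13.4-fold above the day 3 vehicle library, and Axl was the most abundant of the 10 genes in every library except the day 3 vehicle one. It differed from the other genes of its pattern in its timing: Pdgfra, Pdgfrb and Fgfr1 were highest at day 3 of gefitinib, Axl at day 14.

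Pdgfrb encodes a receptor that is a standard marker of pericytes and fibroblasts. Its levels were 23 TPM in the day 3 vehicle library, 157.3 TPM at day 3 of gefitinib and 81.1 TPM at day 14. At day 21 they were 46.9 TPM with DC101, 64 TPM with 4H2, 50.4 TPM with the combination and 58.1 TPM with vehicle. Pdgfra, whose product marks many fibroblasts, stood at 6.9, 55.9 and 44.5 TPM over the same first 3 libraries. At day 21 its levels were 27.5 TPM with DC101, 24.2 TPM with 4H2, 23.1 TPM with the combination and 30.2 TPM with vehicle. Pdgfrb exceeded Pdgfra in every library, by 1.71-fold with DC101 up to 3.33-fold in the day 3 vehicle library.

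Fgfr1 encodes the FGF receptor of mesenchymal cells and of many dedifferentiated tumors. It stood at 15.8 TPM in the vehicle library of day 3, and 95.3 and 69.7 TPM after 3 and 14 days of gefitinib. The day 21 levels were 32.9 TPM with DC101, 53.5 TPM with 4H2, 54.2 TPM with the combination and 45.6 TPM with vehicle. Fgfr1 and Pdgfrb formed the closest pair among the 10 genes, since their log2(TPM + 1) profiles, each centred on its mean over the 7 libraries, differed by a root mean square (RMS) of 0.24. Met and Igf1r were next at 0.25. Antisense genes in GENCODE M21 overlap exons of Fgfr1 (Gm16159) and of Pdgfra (Gm42802), and whether counting used strand is unknown.

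Fgfr2 encodes the FGF receptor whose epithelial form answers FGF7 and FGF10 from the mesenchyme, and it is needed for lung branching and alveolar type 2 cells. Its levels were 120.8 TPM in the day 3 vehicle library, 58.4 TPM at day 3 of gefitinib and 27.2 TPM at day 14. At day 21 they were 59.4 TPM with DC101, 1.9 TPM with 4H2, 6.6 TPM with the combination and 34.2 TPM with vehicle. Fgfr2 was the most abundant of the 10 genes in the vehicle library of day 3, and eighth with 4H2. The ratio of Fgfr1 to Fgfr2 differed widely between libraries, and the part of tissue content in it was not tested. Fgfr1 per Fgfr2 came to 0.131 in the day 3 vehicle library, 1.63 and 2.56 after 3 and 14 days of gefitinib, 0.554 with DC101, 28.2 with 4H2, 8.21 with the combination and 1.33 in the day 21 vehicle library. In GENCODE M21, transcripts assigned to Fgfr2 share exon sequence with Ctbp2, and how such reads were assigned is unknown.

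Ros1 encodes a receptor of epithelial cells in several organs, known in lung cancer for its fusions. It was at 79.2 TPM in the vehicle library of day 3, and 12.2 and 8.6 TPM after 3 and 14 days of gefitinib. At day 21 it was at 44.1 TPM with DC101, 0.1 TPM with 4H2, 2.8 TPM with the combination and 42.9 TPM with vehicle. No other gene of the group spanned such a range. Because values are rounded to 1 decimal, the printed levels allow a ratio of vehicle to 4H2 at day 21 of 286 to 859 from rounding alone, and the counting error at 0.1 TPM is unknown. Whether the transcripts come from an intact gene or a fusion cannot be read from gene-level TPM.

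Met encodes the HGF receptor, whose amplification is a well-known route of resistance to EGFR inhibitors. Its levels were 54.1 TPM in the day 3 vehicle library, 14.8 TPM at day 3 of gefitinib and 21.3 TPM at day 14. The day 21 levels were 38.2 TPM with DC101, 10.8 TPM with 4H2, 14.1 TPM with the combination and 30.7 TPM with vehicle. No library under or after gefitinib exceeded the day 3 vehicle library. Axl per Met was 0.861 in that vehicle library, 23.9 and 29.3 after 3 and 14 days of gefitinib, 5.73 with DC101, 30.0 with 4H2, 18.4 with the combination and 7.84 in the day 21 vehicle library. The part of tissue content in this ratio was not tested either.

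Igf1r encodes the receptor for IGF1 and IGF2, present on most cell types. It stood at 86.7 TPM in the vehicle library of day 3, and 30.0 and 38 TPM after 3 and 14 days of gefitinib. At day 21 its levels were 42.3 TPM with DC101, 18.9 TPM with 4H2, 26.2 TPM with the combination and 46.6 TPM with vehicle. The 5 libraries with abundant epithelial RNA were the 5 highest. Hgf stood at 18 TPM in the vehicle library of day 3, and 8.2 and 12.5 TPM after 3 and 14 days of gefitinib. At day 21 it was at 12.3 TPM with DC101, 6.3 TPM with 4H2, 4.7 TPM with the combination and 12.7 TPM with vehicle. Its level did not follow the summed fibroblast markers in either direction. The library with the least fibroblast RNA held the most Hgf, but the lowest Hgf values, with 4H2 and the combination, came with middling fibroblast sums of 10228 and 10704 TPM. The GENCODE gene Gm43489 shares exon sequence with Hgf on the same strand, and was not in the table.

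Ret encodes the receptor of the GDNF family. It had 0.7 TPM in the vehicle library of day 3, 1.1 and 3.3 TPM after 3 and 14 days of gefitinib, 1.7 TPM with DC101, 0.6 TPM with 4H2, 1.5 TPM with the combination and 1.6 TPM in the day 21 vehicle library. At such levels 1 rounding step is a sizeable part of the value. The 4.71-fold ratio between day 14 and the day 3 vehicle library could be 4.33 to 5.15 from rounding alone, and the depth, which would give the counting error, is unknown.

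The start regions of 5 of the 10 genes could be shown without running into annotated transcript. They are drawn from RefSeq promoter windows on GRCm38.p6, up to 250 bases before a start, 5' to 3' on the gene's strand, leaving out any base inside the RefSeq gene span. They are shown to set genes that moved together (Fgfr2 and Ros1, Igf1r and Hgf) beside Axl, which moved the other way. No motif searched contains another, and capitals mark matches on either strand to TGANTCA (AP-1), GGGCGG (SP1), GGAATG (TEAD), CCAAT or TATAAA.
Axl (chr7:25788925-25788983, minus strand): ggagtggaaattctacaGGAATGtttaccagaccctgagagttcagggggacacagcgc
Ros1 (chr10:52195399-52195494, minus strand): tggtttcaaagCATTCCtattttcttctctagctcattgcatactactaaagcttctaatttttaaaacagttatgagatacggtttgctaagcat
Fgfr2 (chr7:130266809-130267058, minus strand): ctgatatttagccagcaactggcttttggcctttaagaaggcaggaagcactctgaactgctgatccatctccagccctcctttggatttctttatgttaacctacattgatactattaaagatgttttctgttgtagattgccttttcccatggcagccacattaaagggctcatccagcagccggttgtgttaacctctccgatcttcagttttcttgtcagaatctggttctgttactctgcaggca
Igf1r (chr7:67952007-67952256, plus strand): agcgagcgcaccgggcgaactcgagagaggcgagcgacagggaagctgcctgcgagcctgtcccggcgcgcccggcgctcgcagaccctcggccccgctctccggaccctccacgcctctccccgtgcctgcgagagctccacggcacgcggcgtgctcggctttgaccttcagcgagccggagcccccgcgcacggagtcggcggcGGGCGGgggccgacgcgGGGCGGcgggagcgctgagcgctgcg
Hgf (chr5:16553245-16553494, plus strand): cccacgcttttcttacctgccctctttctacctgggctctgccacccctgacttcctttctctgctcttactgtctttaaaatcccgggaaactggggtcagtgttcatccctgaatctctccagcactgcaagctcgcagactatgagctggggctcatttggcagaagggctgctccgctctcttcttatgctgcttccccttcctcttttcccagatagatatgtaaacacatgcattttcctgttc
Igf1r carried 2 SP1 matches and a GC content of 77.6%, against 44% for Fgfr2 and 50.8% for Hgf in windows of the same length. Over 32851 RefSeq windows of 250 bases the median GC content was 52.4%, with quartiles of 45.2% and 61.2%. Axl and Ros1, whose levels ran in opposite directions, each held 1 TEAD match in shorter stretches of 59 and 96 bases. Of all 250-base windows, 12.6% held TEAD letters, 32.7% SP1, 6.75% AP-1, 33.8% CCAAT and 12.4% TATAAA. These matches describe letters and are not evidence of binding.

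To ask which genes followed the tumor epithelium and which the stroma, each gene's centred profile was compared with the mean profile of marker lists. The measure is again the RMS difference in log2 units, and 0 would be an identical shape. The fibroblast profile was the nearest of 14 lists for Fgfr1 (0.21), Pdgfrb (0.21) and Pdgfra (0.25). Their distances to the epithelial profile were 2.45, 2.37 and 2.30. Other lists outside the epithelium lay almost as near. Fgfr1 was 0.34 from both macrophages and endothelium, and the neutrophil list of 3 genes lay 0.33 from Pdgfrb and 0.28 from Pdgfra. Over the 5 libraries without 4H2 and the combination, Fgfr1 was nearest to the neutrophil list at 0.19, with fibroblasts at 0.2. Pdgfra and Pdgfrb stayed nearest to fibroblasts there. Only 3 of the 7 neutrophil genes entered that list, because S100a8, S100a9, Cxcr2 and Ly6g had means below 1 TPM. It is therefore a weak gauge of neutrophils. Axl was nearest to the macrophage profile at 0.24, followed by T cells at 0.49 and fibroblasts at 0.56. Without the 4H2 and combination libraries the order changed, to T cells at 0.21, macrophages at 0.28 and fibroblasts at 0.62. Per 1000 TPM of the macrophage list, Axl was between 27.8 and 43.5 TPM over the 7 libraries. Per 1000 TPM of the fibroblast list it was between 12.7 and 44.6 TPM. Pdgfrb per 1000 TPM of the fibroblast list stayed between 4.71 and 6.77 TPM, and Fgfr1 between 3.42 and 5.23 TPM.

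Ros1 and Fgfr2 were nearest to the alveolar type 2 profile, at 0.62 and 0.65, and next to the epithelial one, at 0.65 and 0.98. Ros1 lay 2.51 from the fibroblast profile and Fgfr2 2.09. Ros1 was not proportional to epithelial RNA throughout: per 1000 TPM of the epithelial list it came to 16.9 TPM in the vehicle library of day 3, 8.12 and 3.59 TPM after 3 and 14 days of gefitinib, 7.64 TPM with DC101, 1.87 TPM with 4H2, 6.14 TPM with the combination and 5 TPM in the day 21 vehicle library. Fgfr2 on the same scale was highest at 38.9 TPM at day 3 of gefitinib, with 25.7 TPM in the vehicle library of day 3, and 3.98 TPM in the day 21 vehicle library. With 4H2 the epithelial sum was 53.5 TPM over 15 genes, so ratios to it rest on low values.

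For Met, Igf1r, Hgf and Ret no list came nearer than a flat line. A flat profile lay 0.75 from Met, 0.63 from Igf1r, 0.56 from Hgf and 0.44 from Ret, while the nearest lists lay at 1.05, 0.96, 0.86 and 0.46. In all, 8 of 10 genes were nearer to the fibroblast than to the epithelial profile, but so were 91.8% of all genes compared, a share that gives the count little weight. With the 4H2 and combination libraries left out, Met, Igf1r and Hgf lay nearer to the epithelial profile, and 5 of 10 genes were nearer to the fibroblast one, against 37.3% of all genes. Over those 5 libraries Met was 0.10 from the alveolar type 2 profile, Igf1r 0.27 and Hgf 0.33. Hgf, whose own flat line also lay at 0.33, was therefore hardly nearer to that list than to no change. Fgfr1, Pdgfra, Pdgfrb and Axl stayed on the fibroblast side, and Ros1 and Fgfr2 nearer to the epithelial than to the fibroblast profile, in both sets of libraries. Over the 5 libraries a flat line was nearer than the epithelial profile for Fgfr2 (0.73 and 1.07), Igf1r (0.50 and 0.67) and Hgf (0.33 and 0.65), though not for Ros1 (1.16 and 0.72) or Met (0.63 and 0.50). The alveolar type 2 profile lay nearer than a flat line for both Fgfr2 (0.57) and Ros1 (0.67) over the same libraries.

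**Figure D2:**
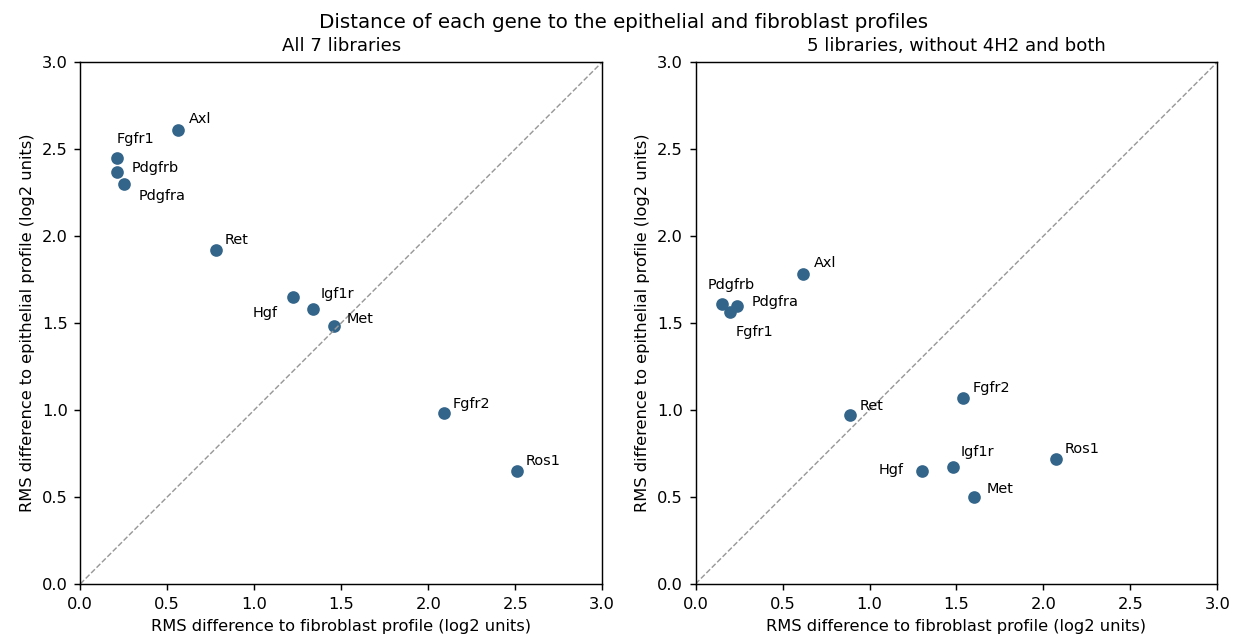
RMS difference of each gene's centred log2(TPM + 1) profile from the fibroblast profile (x axis) and the epithelial profile (y axis), in log2 units, over all 7 libraries (left) and over the 5 libraries without 4H2 and the combination (right); each point is 1 gene and the dashed line marks equal distance. Met, Igf1r and Hgf cross the line between the panels, while Fgfr1, Pdgfra, Pdgfrb and Axl stay above it and Ros1 and Fgfr2 below it.

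The genes with the most similar profiles, among 11081 protein-coding genes with a mean of at least 5 TPM, were taken for each member over the 7 libraries. They were H2-Eb1, Gpr65 and C1qa for Axl (RMS 0.15, 0.15 and 0.16), of which C1qa is on the macrophage list. Those of Pdgfrb were Sparcl1, Cd93 and Col5a2 (0.13, 0.13 and 0.14), and those of Fgfr1 were Cd53, Dsel and Nid1 (0.12, 0.13 and 0.13). Pdgfra lay nearest to the interferon-induced genes Dhx58, Samd9l and Ifit1 (0.09, 0.14 and 0.15). Among the nearest to Ros1 were Ctxn1 and Pcbd1 (0.28 and 0.30), and those nearest to Fgfr2 were Atp6v0a4, Fmo2 and AU021092 (0.31, 0.40 and 0.41). Met had Atp2a3, Xrcc5 and Zbtb39 (0.05, 0.08 and 0.10), and Igf1r had Brwd3, Hjurp and Neil3 (0.10, 0.11 and 0.12). Hgf had Tmem101, Pex26 and Mansc1 (0.11, 0.12 and 0.12), and Ret had Gm41291, Enpp5 and Xbp1 (0.13, 0.18 and 0.21). With 7 libraries many genes share a shape, and likeness of this kind says nothing of shared control.

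In the 3-day gefitinib library, set beside its vehicle, Axl, Pdgfra, Pdgfrb and Fgfr1 were higher, and Ros1, Met, Igf1r, Hgf and Fgfr2 lower. In all, 4 of 10 were at least 2-fold higher, where 20.7% of all genes compared were, and 5 of 10 were at least 2-fold lower, where 14.4% were. Pdgfra was 8.1-fold higher by TPM, Axl 7.58-fold, Pdgfrb 6.84-fold and Fgfr1 6.03-fold, and their log2 differences of 2.52 to 2.90 lay near the median of 2.99 over the fibroblast list. Ros1 was at 12.2 TPM with gefitinib against 79.2 TPM with vehicle, a log2 difference of -2.60, and Met at 14.8 TPM with gefitinib against 54.1 TPM with vehicle (-1.80). Igf1r (-1.50), Hgf (-1.05) and Fgfr2 (-1.04) were less far apart, and Ret (0.30) was not called. With median-of-ratios scaling, or a pseudocount of 5 in place of 1, 3 of the 10 were lower. The epithelial list had a median log2 difference of -1.61. The part of tissue content in these differences was not tested.

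At day 14 of gefitinib, against the same vehicle library, 5 of 10 were higher (22.7% of all genes) and 4 of 10 lower (12.7%). Axl was at 624.7 TPM at day 14 against 46.6 TPM with vehicle, with a log2 difference of 3.72, while the macrophage list had a median of 3.47 and the fibroblast list 2.47. Pdgfra was 2.53 higher, Fgfr1 2.07, Pdgfrb 1.77 and Ret 1.34. The call of Ret was lost with a pseudocount of 5 (0.54), which left 4 of 10 higher. Ros1 was lower by a log2 difference of -3.06, Fgfr2 by -2.11, Met by -1.31 and Igf1r by -1.17, and Hgf, at -0.49, was not called. Both gefitinib comparisons share the vehicle library. Between the gefitinib libraries, day 14 had, relative to day 3, Fgfr2 lower (27.2 TPM at day 14 against 58.4 TPM at day 3, where 2.69% of all genes were lower). Ret was higher (3.3 TPM at day 14 against 1.1 TPM at day 3, where 4.87% were higher), and neither call held with a pseudocount of 5. Axl, at 1.77-fold, and Pdgfrb, at 0.516 of its day 3 level, stayed just inside 2-fold.

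In the day 21 vehicle library, 7 days after the last gefitinib, against day 14 of gefitinib, only Ros1 and Axl were called. Ros1 was higher at 42.9 TPM at day 21 against 8.6 TPM at day 14, a log2 difference of 2.19 (1 of 10 higher, where 7.59% of all genes were). Axl was lower at 240.6 TPM at day 21 against 624.7 TPM at day 14, a difference of -1.37 (1 of 10 lower, where 7.81% were). The epithelial list had a median of 1.45, and the macrophage list -1.21. Met (0.51), Fgfr2 (0.32) and Igf1r (0.29) were higher by less than 2-fold, and Hgf (0.02) was level. Against the day 3 vehicle library, the same day 21 library still held more Axl (2.34), Pdgfra (1.98), Fgfr1 (1.47) and Pdgfrb (1.30), so that 4 of 10 were called higher where 15.2% of all genes were. Fgfr2 was lower (-1.79), the 1 gene of 10 called where 3.09% were, at 34.2 TPM at day 21 against 120.8 TPM at day 3. Ros1 (-0.87), Igf1r (-0.88) and Met (-0.80) were also below the day 3 vehicle library but inside 2-fold. In that pair the alveolar type 2 list had a median of -0.71, with 3 of 9 genes lower and none higher, and the epithelial list a median of 0.11, with 6 of 15 higher and none lower.

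**Figure D3:**
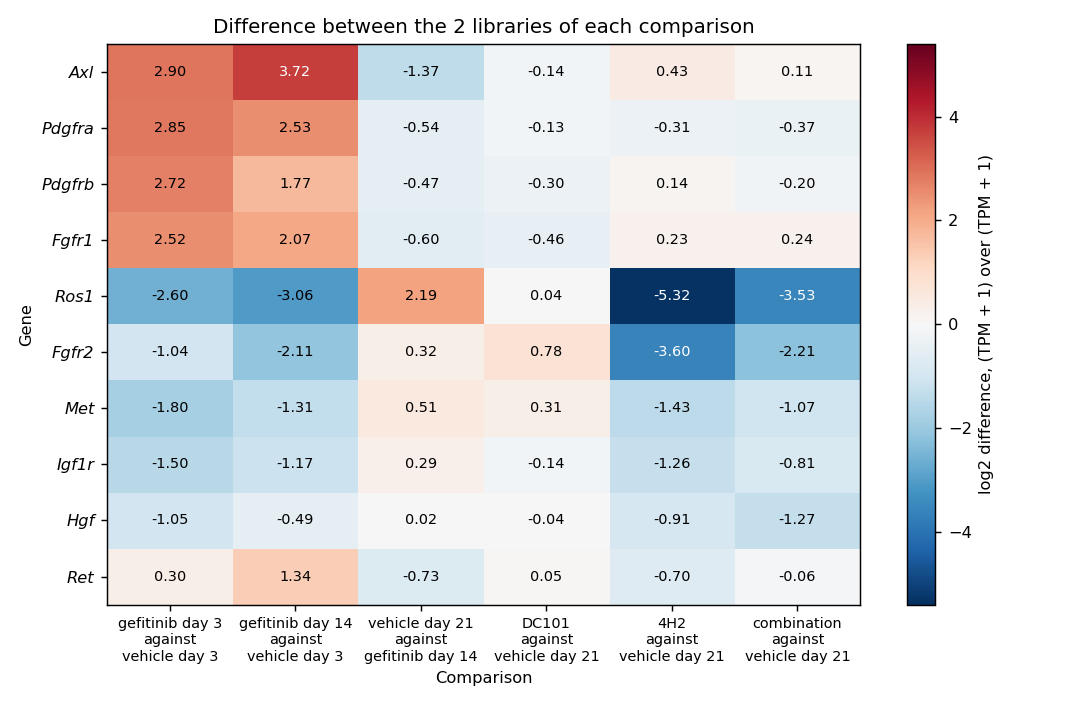
Log2 difference of (TPM + 1) between the 2 libraries of each of the 6 main comparisons (columns) for each of the 10 genes (rows), with the value printed in each cell; red is higher and blue lower in the first-named library. Axl, Pdgfra, Pdgfrb and Fgfr1 are between 1.77 and 3.72 in both gefitinib columns, and Ros1 and Fgfr2 between -5.32 and -2.21 in the 4H2 and combination columns.

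With DC101, against vehicle at day 21, none of the 10 genes differed 2-fold, where 3.11% of all genes were higher and 1.1% lower. The largest difference was that of Fgfr2, at 59.4 TPM with DC101 against 34.2 TPM with vehicle (0.78). Fgfr1 was at 32.9 TPM with DC101 against 45.6 TPM with vehicle (-0.46), and Pdgfrb at 46.9 TPM with DC101 against 58.1 TPM with vehicle (-0.30), beside a fibroblast median of -0.31. The other 7 lay between -0.14 and 0.31.

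With 4H2, against vehicle at day 21, 4 of 10 were lower, where 19.9% of all genes were, and none higher, where 10.9% were. Ros1 was at 0.1 TPM with 4H2 against 42.9 TPM with vehicle (-5.32), and Fgfr2 at 1.9 TPM with 4H2 against 34.2 TPM with vehicle (-3.60). Met was at 10.8 TPM with 4H2 against 30.7 TPM with vehicle (-1.43), and Igf1r at 18.9 TPM with 4H2 against 46.6 TPM with vehicle (-1.26). By TPM, the 4H2 library kept 0.233% of the Ros1 level and 5.56% of the Fgfr2 level of the vehicle library. The 15 epithelial markers kept between 0.343% and 2.36%, and the 9 alveolar type 2 markers between 0.462% and 18.1%. Met kept 35.2%, Igf1r 40.6% and Hgf 49.6%, all far above any epithelial marker. Axl was at 135%, Fgfr1 at 117%, Pdgfrb at 110% and Pdgfra at 80.1%, within the range of 22.7% to 326% of the 14 fibroblast markers. Met, Igf1r and Hgf also lay inside that range, so it does not separate them from these genes. Its lower end was Fn1 alone, and the next lowest marker was Postn at 52.1%.

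With the combination, against the same vehicle library, 4 of 10 were lower, where 16.9% of all genes were, and none higher, where 11.6% were. They were Ros1 (-3.53), Fgfr2 (-2.21), Hgf (4.7 TPM with the combination against 12.7 TPM with vehicle, -1.27) and Met (14.1 TPM with the combination against 30.7 TPM with vehicle, -1.07). With a pseudocount of 5, 2 of the 10 were lower. Ros1 kept 6.53% and Fgfr2 19.3% of the vehicle level, where epithelial markers kept 4.2% to 15.9% and alveolar type 2 markers 5.01% to 25.9%. Igf1r kept 56.2%, Met 45.9% and Hgf 37%. Skeletal muscle and adipocyte RNA were highest in the same 2 libraries: adipocyte markers summed to 726 TPM with 4H2 and 757 TPM with the combination, against 120 TPM with vehicle. Adipocyte RNA was not confined to them, with sums of 328 TPM with DC101 and 561 TPM at day 14 of gefitinib. The part of these tissues in what Met, Igf1r and Hgf kept was not tested. The 4H2 and combination comparisons share the day 21 vehicle library with that of DC101.

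**Figure D4:**
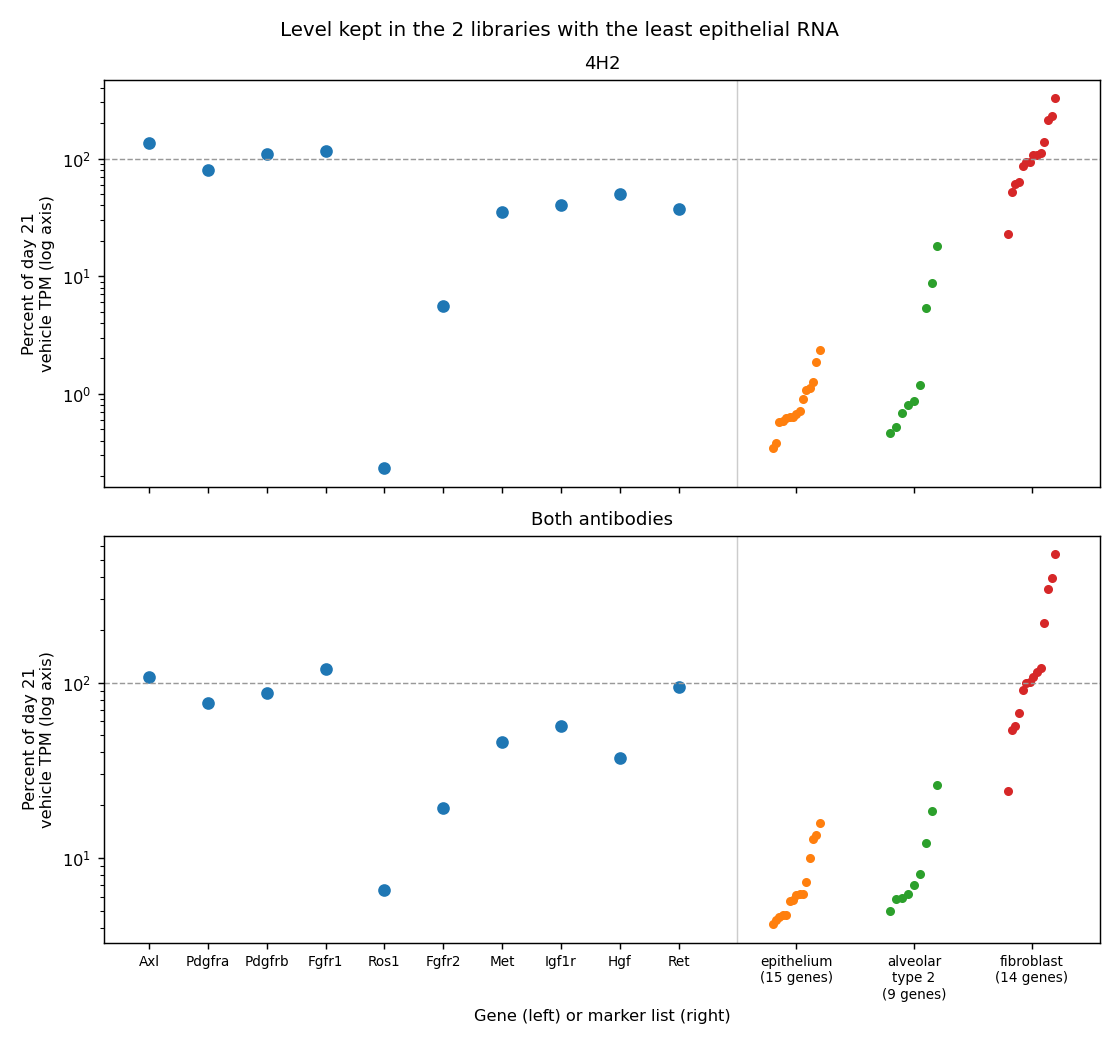
TPM with 4H2 (top) and with both antibodies (bottom) as a percent of the day 21 vehicle library (y axis, log scale), for each of the 10 genes (left) and for the genes of 3 marker lists (right, each point 1 gene); the dashed line is 100%. Met, Igf1r and Hgf lie between 35.2% and 56.2%, above every epithelial marker in both panels.

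Set against 4H2 alone, the combination held more Ros1 (2.8 TPM, against 0.1 TPM with 4H2) and more Fgfr2 (6.6 TPM, against 1.9 TPM with 4H2), 2 of 10 genes, where 4.88% of all genes were higher and 0.457% lower. Neither was called with a pseudocount of 5. The epithelial sum was higher in the same pair, at 456 TPM with the combination against 53.5 TPM with 4H2. Set against DC101 alone, the combination held less Ros1, Fgfr2, Met and Hgf, 4 of 10 genes, where 14.2% of all genes were lower and 11% higher. Both pairs use the combination library.

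The ligands gave a second view of each receptor. Of 74 pathway genes in 9 lists, 55 had a mean of at least 1 TPM. In the TAM family, Gas6, the AXL ligand, was at 915.7 TPM in the vehicle library of day 3, and 822.5 and 191.7 TPM after 3 and 14 days of gefitinib. At day 21 it was at 342.2 TPM with DC101, 384.1 TPM with 4H2, 286.2 TPM with the combination and 254.7 TPM with vehicle. Against the day 3 vehicle library, Gas6 was nearly level at day 3 of gefitinib (log2 difference -0.15), while Axl was higher (2.9). At day 14 of gefitinib they differed in opposite directions, with Gas6 lower (-2.25) and Axl higher (3.72). The day 21 vehicle library, against the same day 3 library, also had Gas6 lower (-1.84) and Axl higher (2.34). Gas6 per Axl came to 19.7 in the day 3 vehicle library, 2.33 at day 3 of gefitinib and 0.307 at day 14. Pros1, the other TAM ligand, was at 66.8 and 46.5 TPM at days 3 and 14 of gefitinib against 17.4 TPM in the vehicle library. The sister receptor Mertk, a receptor of macrophages for dying cells, was at 59.1 and 75.8 TPM at those days against 25 TPM with vehicle, and Tyro3 stayed at 10.4 TPM or less. With 4H2, Tyro3 was at 1.2 TPM, against 10.4 TPM in the day 21 vehicle library, the 1 gene of 4 in the list that was called, near the 19.9% of all genes called lower.

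HGF is secreted inactive and is cut by the proteases HGFAC, hepsin (Hpn) and matriptase (St14), which SPINT1 and SPINT2 inhibit. In the list of HGF activation and the MET family, 5 of 9 genes were lower at day 3 of gefitinib, where 14.4% of all genes were, and 2 of 9 higher, close to the 20.7% of all genes. Hpn was at 27.6 TPM with gefitinib against 122.5 TPM with vehicle, and St14 at 29.5 TPM with gefitinib against 93.4 TPM with vehicle. The urokinase gene Plau was at 80.1 TPM with gefitinib against 23.2 TPM with vehicle. With 4H2, 6 of 9 were lower than with vehicle at day 21, where 19.9% of all genes were, and none higher, where 10.9% were, with a list median of -2.41 beside a median of -0.21 over all genes. Spint1 was at 3.8 TPM with 4H2 against 153 TPM with vehicle, and Spint2 at 31.4 TPM with 4H2 against 570.2 TPM with vehicle. St14 was at 6.3 TPM with 4H2 against 94.2 TPM with vehicle. Hgf itself, at 6.3 TPM with 4H2 against 12.7 TPM with vehicle, was nearer to its vehicle level than any of these 3. The summed epithelial markers were lower in the same pair, at 53.5 TPM with 4H2 against 8584 TPM with vehicle. They were also lower at day 3 of gefitinib, at 1503 TPM against 4693 TPM with vehicle. The part of tissue content in the differences of this list was not tested. Hpn was at 124.5 TPM with vehicle at day 21 against 35.9 TPM at day 14 of gefitinib. In the same pair Hgfac was at 5.9 TPM at day 21 against 1.2 TPM at day 14, and the urokinase receptor gene Plaur at 217.7 TPM at day 21 against 70.6 TPM at day 14.

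Among FGF ligands, 6 of 12 had a mean of at least 1 TPM. Fgf1 was highest in the day 3 vehicle library at 74.1 TPM and stayed between 9.9 and 29.9 TPM elsewhere. Fgf7, which activates the epithelial form of FGFR2, was at 6.4 TPM at day 3 of gefitinib against 1.1 TPM with vehicle, and Fgf18 at 8.1 TPM with gefitinib against 0.9 TPM with vehicle. Fgf2 lay between 5.3 and 13.2 TPM in all 7 libraries. Fgf13, which encodes an intracellular protein of the FGF family, was at 15.6 TPM with 4H2 and 15 TPM with the combination, against 1 TPM with vehicle at day 21, and Fgf23 did not exceed 5.1 TPM. Skeletal muscle RNA was also highest with 4H2 and the combination, and its part in the Fgf13 level was not tested. Of the other FGF receptors, Fgfr4 was at 0.2 and 0.3 TPM at days 3 and 14 of gefitinib against 10.6 TPM with vehicle. Fgfr3 was at 1.1 TPM with 4H2 and 4.4 TPM with the combination against 10.3 TPM with vehicle at day 21. Flrt3, a transmembrane partner of FGF receptors, was at 0.7 TPM with 4H2 and 3.4 TPM with the combination, against 15.3 TPM with vehicle at day 21. Fgfrl1, which encodes an FGF receptor without a kinase domain, was at 28.6 TPM with 4H2 and 36.3 TPM with the combination against 16.8 TPM with vehicle.

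The IGF1R ligands moved apart from each other. Igf1, made by fibroblasts and macrophages, had 2.6 TPM in the vehicle library of day 3, 54.3 and 25.1 TPM after 3 and 14 days of gefitinib, 16.2 TPM with DC101, 36.4 TPM with 4H2, 30.9 TPM with the combination and 9.5 TPM in the day 21 vehicle library. Igf2, an imprinted growth factor, was at 46.5, 26.6 and 25.3 TPM in the first 3 of these libraries. At day 21 it stood at 121.3 TPM with DC101, 29.6 TPM with 4H2, 42 TPM with the combination and 132.3 TPM with vehicle. Igf1 was highest at day 3 of gefitinib, where Igf1r was at 30.0 TPM, and Igf2 was highest in the 2 day 21 libraries that held most epithelial RNA. At day 3 of gefitinib 5 of 12 genes of the IGF list were higher, where 20.7% of all genes were, and 2 of 12 lower, near the 14.4% of all genes. Among those higher were the binding protein genes Igfbp2 at 31.2 TPM with gefitinib against 1.1 TPM with vehicle, and Igfbp6 at 153.2 TPM with gefitinib against 9.5 TPM with vehicle. With DC101, where 1.1% of all genes were lower, the 1 gene of the list called was Igfbp3, at 27.9 TPM with DC101 against 120.4 TPM with vehicle. Other binding protein genes went different ways. Igfbp5 was at 216.2 TPM at day 14 of gefitinib against 80.3 TPM at day 3, Igfbp7 at 864.5 TPM with vehicle at day 21 against 221.2 TPM with vehicle at day 3, and Igfbp4 at 149.9 TPM with the combination against 382.9 TPM with DC101.

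All 4 PDGF ligand genes were compared, and 3 were higher at day 3 of gefitinib, where 20.7% of all genes were. Pdgfc was at 31.5 TPM with gefitinib against 5.2 TPM with vehicle, and Pdgfd at 6.4 TPM with gefitinib against 1.5 TPM with vehicle. Pdgfb, made by endothelium to recruit pericytes, was at 26.6 TPM with gefitinib against 5.7 TPM with vehicle. Pdgfa stayed between 27.7 and 41.2 TPM in all 7 libraries. At day 14 the count was again 3 of 4, where 22.7% of all genes were higher, and Pdgfc was lower at 15.5 TPM with vehicle at day 21, against 38.4 TPM at day 14. Neither DC101, 4H2 nor the combination had a PDGF ligand 2-fold apart from vehicle.

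**Figure D5:**
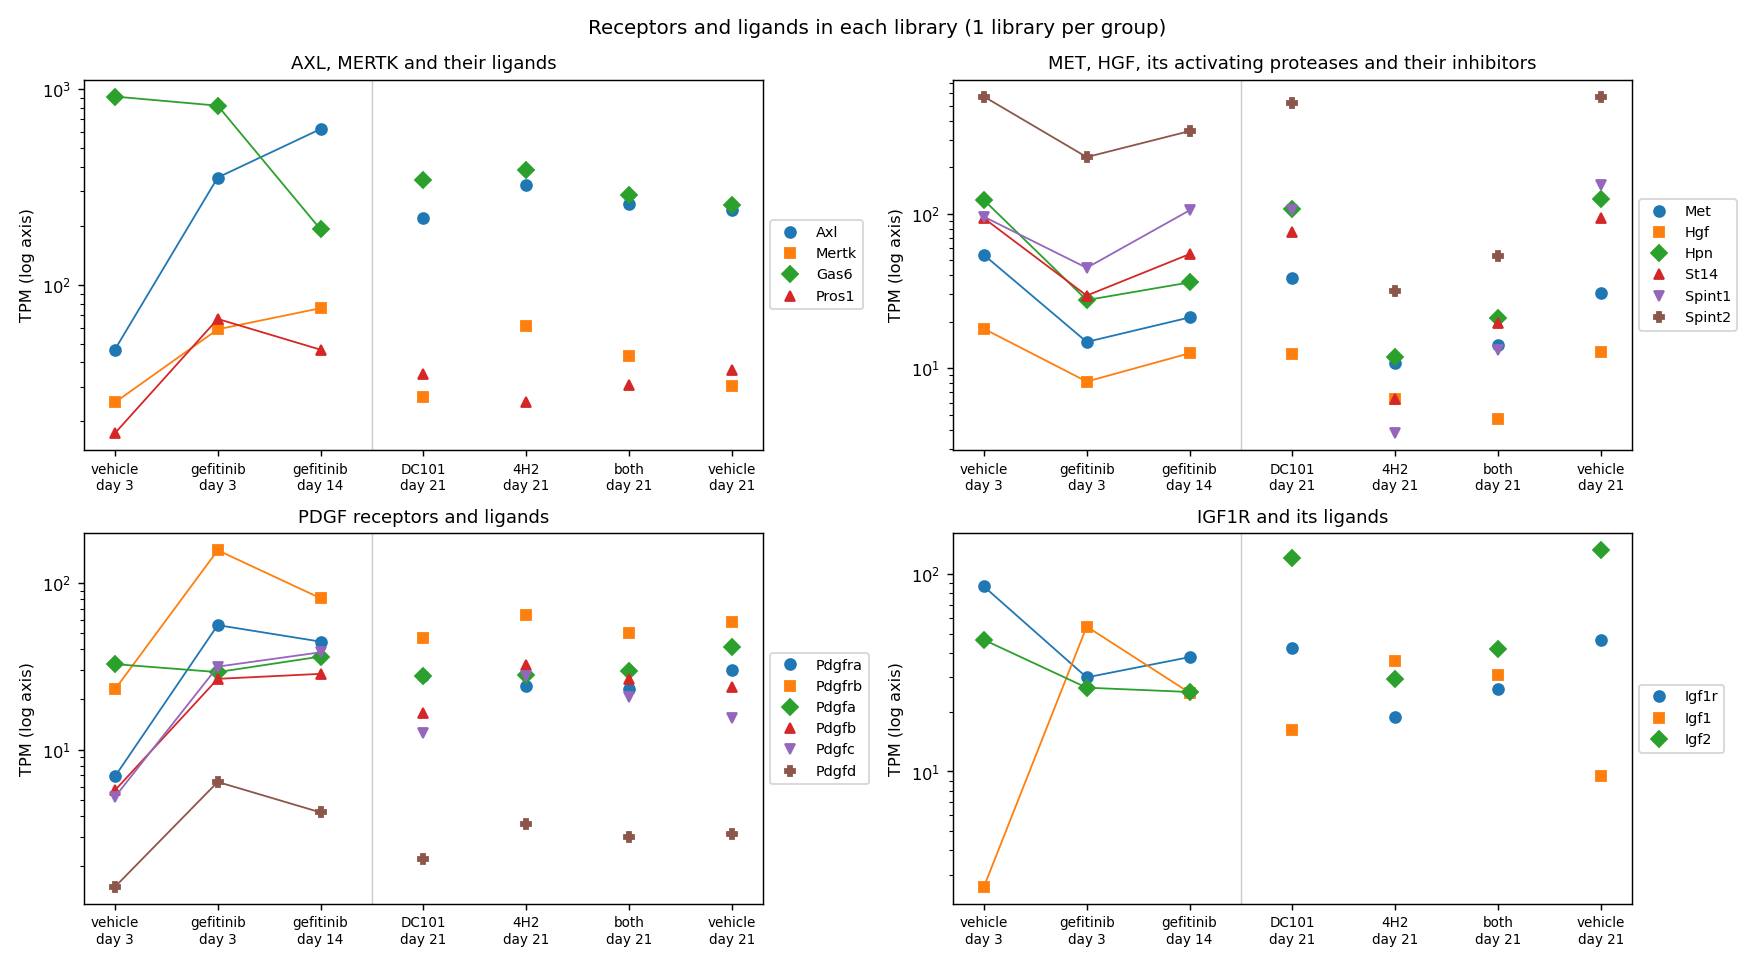
TPM (y axis, log scale) of receptors with their ligands and, for HGF, its proteases and inhibitors, in each of the 7 libraries (x axis), with each point 1 library and lines joining the day 3 vehicle library and the 2 gefitinib libraries. Gas6 is above Axl in the day 3 vehicle library (915.7 and 46.6 TPM) and below it at day 14 of gefitinib (191.7 and 624.7 TPM).

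The RET ligand Gdnf did not exceed 1.7 TPM, and of the 4 compared genes of that list Gfra1, a GDNF coreceptor, was at 12.1 and 9.7 TPM at days 3 and 14 of gefitinib against 1.4 TPM with vehicle. Gfra2, the coreceptor for neurturin, was at 28 TPM at day 3 of gefitinib against 9.7 TPM with vehicle, and the neurturin gene Nrtn at 3.9 TPM at day 14 against 9.2 TPM with vehicle. Gdf15, a stress-induced ligand of the GFRAL and RET complex, reached 191.4 TPM in the day 21 vehicle library, against 15.8 TPM at day 14 of gefitinib. It was at 6.3 TPM with 4H2 and 23 TPM with the combination, against the same 191.4 TPM with vehicle. Gfral, its coreceptor, was listed at 0 in all 7 libraries. Nell2, the ROS1 ligand of the mouse epididymis, did not exceed 0.2 TPM in any library, Alk was listed at 0 in all 7, and Ltk was at 0.7 TPM with 4H2 against 6.3 TPM with vehicle.

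Most adaptors shared by these receptors were not called. Of 8, Gab2 and Grb2 were higher at day 3 of gefitinib and again at day 14, near the 20.7% and 22.7% of all genes that were. At day 3 Gab2 was at 45.2 TPM with gefitinib against 7.5 TPM with vehicle, and Grb2 at 183.2 TPM with gefitinib against 83.3 TPM with vehicle. Gab1, the docking protein of MET, lay between 15 and 48.2 TPM and was highest in the day 3 vehicle library. With 4H2, where 19.9% of all genes were lower, Shc1 was the 1 adaptor called, at 57.1 TPM with 4H2 against 125.1 TPM with vehicle. Sos1, Ptpn11, Crk and Crkl were not called in any of the 10 comparisons.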

How the data were processed

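The authors deposited TPM values, a length-normalised transcript abundance, for 21892 gene symbols in 7 libraries, rounded to 1 decimal and summing to about 1000000 per library. Per the labels' protocols, strand-specific libraries followed removal of ribosomal RNA. The submitters' processing notes name GRCm38.p6. No aligner, counting tool or annotation is known here. TPM keep no depth, so depth is unknown and no counting interval is given.

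From the deposited TPM, log2((TPM + 1)/(TPM + 1)) was computed for the 13997 genes with a mean of at least 1 TPM, in 6 main and 4 secondary comparisons, with Python 3.11.15, pandas 2.3.3 and NumPy 2.4.6. The code for the calls was checked on copies of a single library with planted differences. That for the distances was checked on list profiles with small added noise. Neither check measures the error of a call between single libraries. Profiles were compared by RMS difference with 14 marker lists of 137 genes, of which Trac was not in the table. The members, lists and tests were chosen with earlier results of these data known. Named are the members, their ligands, up to 3 called genes per pathway list and comparison at 5 TPM or more in either library, and the 3 nearest protein-coding genes of each member, of which 1 is not reported here; Gfral, Alk, Gab1, Sos1, Ptpn11, Crk and Crkl were added after their values were seen. Promoter windows are RefSeq's; 7 of the 10 members had one.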

Additional observations from a re-analysis of the deposited data

How the results depend on the processing

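No paired analysis was possible because each group has 1 library. Counts are of the 10 genes unless said otherwise. With a pseudocount of 5 in place of 1, the genes called lower numbered 3 at day 3 of gefitinib (5 as reported) and 2 with the combination (4); none was then called higher or lower at day 14 against day 3 of gefitinib (0 and 0, against 1 and 1), or higher with the combination against 4H2 (0, against 2). Median-of-ratios scaling gave 3 lower at day 3 of gefitinib, and 0 higher and 2 lower at day 14 against day 3. A minimum mean of 5 TPM, which removes Ret, gave 0 higher in that last comparison. Without the 4H2 and combination libraries, 5 genes were nearer to the fibroblast profile (8 as reported). The distance to the epithelial minus that to the fibroblast profile then turned to -1.09 for Met, -0.65 for Hgf and -0.81 for Igf1r; for Met it was also -0.10 with a pseudocount of 5. The causes were not tested. Of 128 recomputed counts 118 stayed within 1.5 times, and of 590 recomputed log2 differences 579 moved by less than 1.5-fold. No called difference changed sign. The epithelial minus fibroblast distances held less well: of 79 recomputed, 68 counted as the same, 7 moved and 4 changed sign. Leaving out the 4H2 and combination libraries gave 6 of the moved and 3 of the changed signs, with 1 gene the same. The median log2 difference of all genes was -0.21 with 4H2 and -0.17 with the combination as deposited, and 0.02 and 0.05 after median-of-ratios scaling; with the combination against DC101 it was -0.09 and 0.09. The alternatives for the 4 secondary comparisons were chosen after seeing the data. The unknown depth limits Ret and the Ros1 level with 4H2 most.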
